A study of Mus musculus with 2 samples.

Results

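The synapsins and 6 other proteins of the synaptic vesicle or of its fusion were examined as targets of the transcription factor EGR1 in the mouse cortex. The 9 genes are Syn1, Syn2, Syn3, Syp, Sv2a, Syt1, Vamp2, Snap25 and Stx1a. An EGR1 peak was assigned to a gene when its centre lay in the gene body or within 10 kb of one of its transcription start sites (TSSs) in GENCODE release M21. By this rule 22 of the 12014 EGR1 peaks were assigned, and each of the 9 genes had at least 1. EGR1 was immunoprecipitated from frontal cortices of male F1 hybrids of 129SvEv females and C57BL/6N males, at an age of 6 weeks. These were wild-type animals without a treatment, and input DNA of the same tissue was the only other sample. Cortices of 4 to 5 mice were pooled for a ChIP, and the deposited list merges the peaks of 2 ChIPs. Neurons and glia were not separated, so a peak cannot be placed in a cell type.

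Neurons release transmitter from vesicles that dock at the presynaptic membrane, fuse with it when calcium enters, and are then retrieved and refilled. Synapsins coat the vesicles and tether them in a reserve pool. Synaptophysin (Syp) and SV2A (Sv2a) are membrane proteins of the vesicle, and synaptotagmin 1 (Syt1) is its calcium sensor. Fusion is driven by the SNARE proteins, VAMP2 (synaptobrevin) on the vesicle and SNAP-25 and syntaxin 1A (Stx1a) on the plasma membrane. EGR1, also known as zif268, is an activity-induced zinc finger protein that binds a GC-rich element of 9 bp. Synapsin promoters are among the neuronal promoters in which such elements have long been known.

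The exact EGR element, searched as GCGTGGGCG (T form) or GCGGGGGCG (G form) on both strands, was found 7 times in 6 of the 22 peaks. These sites are shown with 10 bases to each side, on the strand of the vesicle gene, with the element in capitals. The sequences are those of the RefSeq assembly GRCm38.p6 (mm10), a C57BL/6J genome, and not those of the hybrid animals.
Syn1, chrX:20920828-20920856, minus strand: cctcgcgctcCGCCCCCGCggcccacaga
Syn2, chr6:115134851-115134879, plus strand: gcgcgagtagGCGGGGGCGgagcaggctc
Syp, chrX:7638621-7638649, plus strand: gatcgcgcacCGCCCCCGCcgctccccgc
Vamp2, G form, chr11:69088427-69088455, plus strand: tgcagcgcccCGCCCCCGCggtccgcttg
Vamp2, T form, chr11:69088468-69088496, plus strand: tgccgcgcccCGCCCACGCcgcagtaccc
Vamp2 downstream, at the start of Per1, chr11:69095045-69095073, plus strand: cgagttggggCGCCCCCGCcctcacgtgg
Syt1, chr10:109010755-109010783, minus strand: tgtgtgcaggGCGGGGGCGgccagctggg
The element read in the direction of transcription at Syn2 and Syt1, and on the opposite strand at the other 5 sites. The T form occurred only in Vamp2, beside a G form in the same peak. All 7 sites lay within 30 bp of the centre of their peak, at distances of 5 to 30 bp. Over the 2150 exact sites in all peaks the median distance was 24.5 bp, and 59.4% lay within 30 bp. The sites of Syn1, Syp and Syt1 lay in the annotated 5′UTR, and those of Syn2 and Vamp2 upstream of it.

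All 9 genes had a peak by the rule, against 39.6% of the 21938 protein-coding genes. All 9 also had a peak within 2 kb of an annotated TSS, against 29.6% of protein-coding genes. Of the 9 genes, 7 had 2 or more peaks, against 13.7%. These counts include peaks nearer to another gene, as were those of Syn2 and Sv2a away from their TSSs. The rule also takes in the whole gene body. Syt1, Syn3 and Syn2 are long genes (513.3, 443.8 and 147.1 kb), and the 13.7% was not matched for length. A peak within 2 kb with an irreproducible discovery rate (IDR) of 0.001 or less was present at 6 genes, against 21.5%. The IDR is read like a q-value, and a low IDR means that the peak scored high in both ChIPs. With the TSS taken from the longest coding transcript of each gene and the distance limited to 250 bp, 7 genes had a peak, against 17.2%. The exceptions were Syn3 and Stx1a. The shares beside these counts are of all protein-coding genes, whether or not expressed in cortex, and were not matched for expression. The members are 9 chosen genes and not replicates of a condition, and the merged list has no value per ChIP, so no test was made of these counts. Of the 22 peaks, 14 lay nearer to a TSS of the vesicle gene than to that of any other gene, and 8 lay nearer to another gene. The list stops at an IDR of 0.02, and a gene without a peak may still have been bound below that limit.

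**Figure D1:**
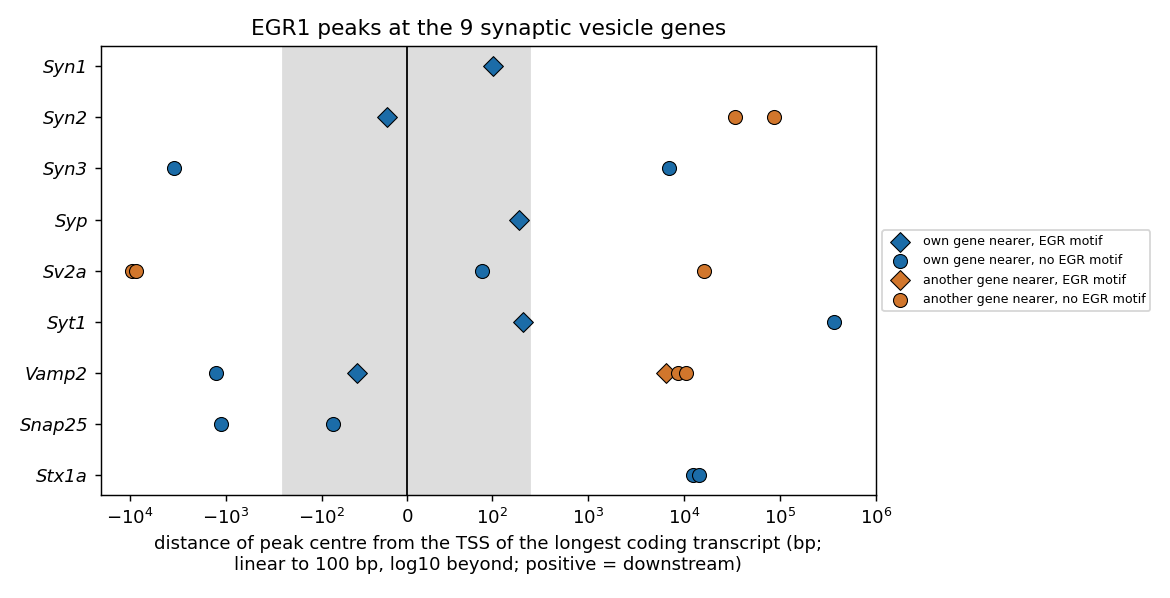
Distance in bp of each of the 22 peak centres from the TSS of the longest coding transcript of its gene (linear to 100 bp and log10 beyond, positive downstream), with diamonds for peaks holding an exact EGR element and colours for the nearer gene. The shaded 250 bp to each side of the TSS hold a peak of 7 genes, and none of Syn3 or Stx1a.

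Among the synapsins, Syn2 carried by far the most reproducible peak. It lay on chr6:115134781-115135007 with an IDR of 8.77e-09, which ranked 33 of 12014, and its centre was 23 bp upstream of the TSS of the longest coding transcript (Syn2-201) and 8 bp upstream of the outermost one. Of the 6493 protein-coding genes with a peak within 2 kb of a TSS, 33 (0.508%) had one with an IDR as low as or lower than that of Syn2. The TSS of Gm17733, a long noncoding RNA annotated as bidirectional with Syn2, was 59 bp from the peak centre, so the same peak lies at the start of both. The peak had a GC content of 70.0% with 22 CpGs, and it held the G form and 3 GC boxes (GGGCGG). The stretch upstream of the UTR is given, as the best-ranked promoter here, with the exact element in capitals.
Syn2 promoter, chr6:115134781-115134901, plus strand: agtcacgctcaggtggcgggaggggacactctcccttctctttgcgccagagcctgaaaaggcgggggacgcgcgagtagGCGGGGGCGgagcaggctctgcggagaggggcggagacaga

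Syn2 had a further pair of peaks deep in its first intron. The first, on chr6:115168951-115169200, lay 34159 bp downstream of the TSS with an IDR of 1.86e-05. The second, on chr6:115221333-115221582, lay 86541 bp downstream with an IDR of 0.000929. Neither held an exact EGR element, and with 47.6% and 50.8% their GC contents were far below that of the promoter peak. The first held 1 site that differs from the element at 1 base (GCGTGGGTG). Each held an AP-1 match, searched as TGANTCA, a loose form of TGA(C/G)TCA, the site of FOS and JUN proteins. The match read TGACTCA in the first and TGAATCA in the second. A match to TGANTCA was present in 6.48% of all peaks. By distance alone the first is nearer to the pseudogene Gm18325 (9145 bp) and the second to Gm17482 (5885 bp), which both lie inside Syn2. The sequence of the first is given with its AP-1 match in capitals, as the clearest contrast to the GC-rich promoter.
Syn2 intron 1, chr6:115168951-115169200, plus strand: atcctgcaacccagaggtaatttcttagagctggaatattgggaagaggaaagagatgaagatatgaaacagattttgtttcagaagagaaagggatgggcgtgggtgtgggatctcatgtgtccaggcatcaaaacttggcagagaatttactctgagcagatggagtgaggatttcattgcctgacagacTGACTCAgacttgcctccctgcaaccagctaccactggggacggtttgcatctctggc

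Syn1, on chromosome X, had 1 peak, on chrX:20920759-20920871 with an IDR of 1.29e-05 (rank 3890). Its centre lay in the 5′UTR of exon 1, 103 bp downstream of the TSS. The peak was among the narrowest here (113 bp), had the highest GC content of the 22 peaks (74.3%) and held the G form. Only 12.2% of the 948 protein-coding genes on chromosome X had a peak within 2 kb of a TSS, and 164 of all peaks lay on this chromosome. Syn1 and Syp, both on X, were among that 12.2%.

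Syn3 differed from the other synapsins. Its peaks lay on chr10:86491789-86492038 and chr10:86502205-86502454, with IDRs of 0.0110 and 0.0126 and ranks of 10816 and 11076, near the end of the list. The first lay in intron 1, 6942 bp downstream of the TSS of Syn3-201 but 17 bp from the start of Syn3-203, which is annotated as a retained-intron transcript and is not in the basic set of GENCODE. The second lay 3474 bp upstream of Syn3-201. Neither held an exact EGR element, one with a single difference, or a GC box. Their observed to expected CpG ratios were 0.11 and 0.07. Inside each synapsin gene lies a Timp gene in opposite orientation, an inhibitor of metalloproteinases (Timp1 in Syn1, Timp4 in Syn2 and Timp3 in Syn3). These 3 genes, named after their values were seen, had 0 peaks within 2 kb of a TSS, and the nearest peaks were 50594, 30390 and 189060 bp away.

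Of the vesicle membrane proteins, Syp had 1 peak, on chrX:7638535-7638787 with an IDR of 2.29e-06 (rank 3039). Its centre lay 190 bp downstream of the TSS, in the 5′UTR of exon 1. It held 23 CpGs, the G form, a second site with 1 difference (GCGGGCGCG) and an AP-1 match. Sv2a had 4 peaks, but only 1 of them was nearest to Sv2a itself. That peak, on chr3:96181107-96181370, lay 88 bp downstream of the TSS with an IDR of 0.00359 (rank 8881). It held 2 sites with 1 difference from the EGR element and no exact one. The most reproducible peak of the region, on chr3:96197206-96197455 with an IDR of 5.03e-05, lay beyond the end of Sv2a and 255 bp from a TSS of Bola1, which encodes a mitochondrial protein. Its centre was 16180 bp from the TSS of the coding Sv2a-201. It met the rule only through Sv2a-203, a processed transcript outside the basic set of GENCODE, at 4785 bp. Upstream, peaks on chr3:96171642-96171891 and chr3:96172379-96172642 had IDRs of 0.00701 and 0.00707. They lay 565 and 36 bp from a TSS of Sf3b4, a splicing factor, and 9384 and 8640 bp from that of Sv2a.

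Syt1 had a peak at its TSS and another one far inside a gene of 513.3 kb. The first, on chr10:109010661-109010887, had an IDR of 1.68e-06 (rank 2845), lay 208 bp downstream of the TSS in the 5′UTR of exon 1, and held the G form 5 bp from its centre. Its CpG ratio, 0.32, was the lowest of the 6 peaks with an exact element. The second, on chr10:108643980-108644243, lay in intron 4, 366870 bp downstream, with an IDR of 0.00344 and a GC content of 46.6%. It held no exact EGR element and none with 1 difference.

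Vamp2 is the shortest of the 9 genes (3.90 kb) and had the most peaks (5). At its TSS, the peak on chr11:69088322-69088582 had an IDR of 9.92e-05 (rank 5079), with its centre 38 bp upstream of the outermost TSS (Vamp2-201). It held 33 CpGs, the most of the 22 peaks, both forms of the EGR element and 3 GC boxes. A weaker peak lay 1229 bp upstream, on chr11:69087129-69087392, with an IDR of 0.00552, a CpG ratio of 0.13 and none of the elements searched. The bases before the 5′UTR are given for the peak at the TSS, since no other peak here held both forms, which are in capitals as their reverse complements.
Vamp2 promoter, chr11:69088322-69088489, plus strand: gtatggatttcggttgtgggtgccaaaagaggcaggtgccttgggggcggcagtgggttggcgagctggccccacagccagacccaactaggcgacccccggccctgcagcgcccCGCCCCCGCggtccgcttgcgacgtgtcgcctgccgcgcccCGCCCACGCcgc

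The other 3 Vamp2 peaks belong to a neighbourhood shared with Per1, a gene of the circadian clock that is itself induced by neuronal activity. They lay 151, 1704 and 20 bp from a TSS of Per1. The nearest Vamp2 TSS, at 5460, 7638 and 9322 bp, was that of a retained-intron transcript outside the basic set of GENCODE. From the TSS of the longest coding Vamp2 transcript the distances were 6556, 8734 and 10418 bp. The third peak thus met the rule only through the retained-intron transcript. The IDRs of the 3 peaks were 1.60e-07, 1.81e-06 and 4.89e-07, all lower than that of the peak at the Vamp2 TSS. The first held the G form. The second held a cAMP response element (CRE, TGACGTCA), the site of CREB, shown here in capitals.
Per1, between annotated TSSs, chr11:69097192-69097219, plus strand: gcctccgcttTGACGTCAcctccctctc
The window of 10 kb also decided how many peaks of this cluster were counted. A further Per1 peak, on chr11:69100004-69100202 with an IDR of 2.28e-08, was just outside, at 10497 bp from the same retained-intron TSS of Vamp2. The farthest peak inside was that at Sf3b4, 9384 bp from Sv2a. For Stx1a, the first peak outside lay at 13331 bp. Without the peaks nearer to other genes, 2 peaks remained for Vamp2 and 1 each for Sv2a and Syn2.

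Snap25 had a pair of peaks, 1031 bp apart. The upstream one, on chr2:136712203-136712466, lay 1118 bp before the TSS and had the lower IDR, 7.15e-06 (rank 3577). The one at the TSS, on chr2:136713234-136713497, had its centre 87 bp upstream with an IDR of 0.00718 (rank 10050). This order was the reverse of that at Vamp2, where the peak at the TSS had the lower IDR. Neither Snap25 peak held an exact EGR element. The upstream one held 1 site with 1 difference (GCGTGGGAG) and the one at the TSS none. Both held an AP-1 match, and the peak at the TSS also held a CRE. Both are given up to the 5′UTR, with the AP-1 matches in capitals, and the CRE, which reaches into the UTR, on a line of its own.
Snap25 upstream peak, chr2:136712203-136712466, plus strand: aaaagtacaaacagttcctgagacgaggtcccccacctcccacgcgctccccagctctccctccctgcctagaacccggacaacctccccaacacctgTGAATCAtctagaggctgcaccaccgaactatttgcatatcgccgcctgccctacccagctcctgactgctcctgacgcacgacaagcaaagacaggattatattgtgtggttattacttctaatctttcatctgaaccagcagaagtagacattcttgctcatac
Snap25 peak at the TSS, chr2:136713234-136713438, plus strand: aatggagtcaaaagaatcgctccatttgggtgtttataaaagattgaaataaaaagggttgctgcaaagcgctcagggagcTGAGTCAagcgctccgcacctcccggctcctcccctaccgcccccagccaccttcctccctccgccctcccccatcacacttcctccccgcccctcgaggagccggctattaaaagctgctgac
Snap25 CRE, chr2:136713425-136713452, plus strand: taaaagctgcTGACGTCAaaggaacggc

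Stx1a had no peak near the TSS of its coding transcripts. The nearest peak centre to that of Stx1a-201 was 12303 bp away. Its 2 peaks, on chr5:135035653-135035916 and chr5:135037836-135038085, lay in introns 1 and 3 with IDRs of 0.0128 and 0.0164 and ranks of 11103 and 11602, the highest IDRs of the 22. They fell within 2 kb of a TSS only because of Stx1a-202, a processed transcript that starts 450 bp from the second peak. Of the second peak 33.6% was repeat-masked sequence, the highest share among the 22. Neither peak held an EGR element with up to 1 difference, a GC box, a CRE or an AP-1 match. The RefSeq promoter window of Stx1a, 250 bp before to 50 bp after its start, was GC-rich (66.3%). It had a CpG ratio of 0.64 and 3 GC boxes. Of all RefSeq windows, 35.7% held a GC box and 13.1% overlapped a peak. The 250 bases upstream of Stx1a are given for comparison with the bound promoters, and hold no exact EGR element, CRE or AP-1 match.
Stx1a promoter without a peak, chr5:135023232-135023481, plus strand: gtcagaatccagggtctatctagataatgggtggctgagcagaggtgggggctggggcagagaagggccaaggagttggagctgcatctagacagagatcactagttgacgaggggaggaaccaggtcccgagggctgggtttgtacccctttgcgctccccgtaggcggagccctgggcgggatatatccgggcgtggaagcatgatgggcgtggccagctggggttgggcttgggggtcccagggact

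Across the 22 peaks the IDR ran from 8.77e-09 to 0.0164, with a median of 0.000514, against 0.000321 for all 12014 peaks. An IDR of 0.001 or less was found for 12 of the 22 (59.6% of all peaks), and 0.01 or less for 18 (88.6%). Without the 8 peaks nearer to another gene, the median of the other 14 was 0.00351. The 12 peaks within 2 kb of their own TSS had a median of 0.00184, against 9.91e-05 for all 7598 peaks on assembled chromosomes within 2 kb of a TSS. By the lowest IDR within 2 kb of a TSS, the order of the genes was Syn2, Syt1, Syp, Snap25, Syn1, Vamp2, Sv2a, Syn3 and Stx1a. The share of the 6493 genes with an equal or lower IDR was 36.9% for Syt1, 38.9% for Syp, 44.3% for Snap25, 47.3% for Syn1 and 57.3% for Vamp2. It was 83.4% for Sv2a, 94.4% for Syn3 and 95.6% for Stx1a. Thus Syn2 stood near the top of the bound genes, 5 members stood near the middle, and 3 stood towards the end. IDRs have no error of their own here, so whether neighbours in this order differ beyond the spread between ChIPs cannot be told.

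**Figure D2:**
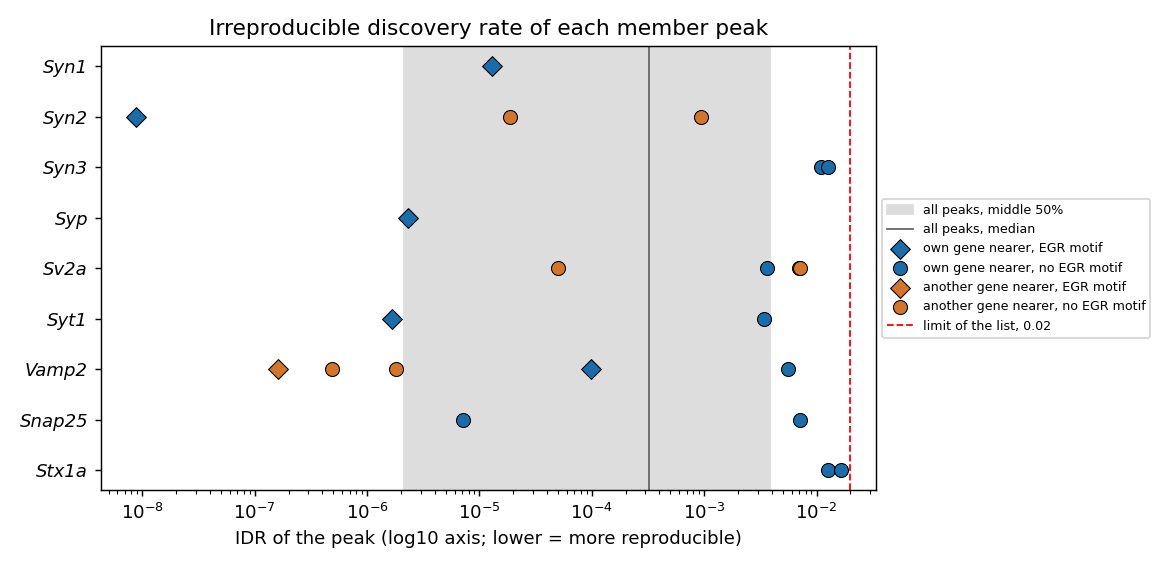
IDR of each of the 22 peaks (log10 axis) by gene, with diamonds for an exact EGR element, colours for the nearer gene, grey for the middle 50% of all 12014 peaks and a dashed line at the limit of the list, 0.02. Syn2 holds the lowest value, 8.77e-09, and all peaks of Syn3 and Stx1a lie above 0.01.

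Start-site peaks were found on both sides of the TSS. The peaks of Syn2, Vamp2 and Snap25 within 250 bp of the TSS were centred upstream, and those of Syn1, Syp, Sv2a and Syt1 downstream. These sides were taken from the TSS of the longest coding transcript. Over all 5098 peaks within 250 bp of any annotated TSS, 66.0% were centred upstream of the nearest one. By that measure the Syn3 peak centred 17 bp upstream of the start of Syn3-203 would also count. An exact EGR element was present in 5 of the 12 peaks within 2 kb of the own TSS, against 22.2% of all peaks at that distance, and in 6 of all 22, against 16.6% of all peaks. Those 5 were the start-site peaks of Syn1, Syn2, Syp, Syt1 and Vamp2, whose IDRs were 9.92e-05 or lower. The start-site peaks of Sv2a and Snap25 (-87 bp), without an exact element, had IDRs of 0.00359 and 0.00718. The Snap25 peak at -1118 bp, also without one, had an IDR of 7.15e-06, lower than those of the start-site peaks of Syn1 and Vamp2. With up to 1 difference allowed the element was found in 13 of the 22, against 69.8% of all peaks. GC boxes, which overlap the G form where it is followed by G, were found in 11 (55.8% of all peaks). A CRE was found in 2 (1.30%) and an AP-1 match (TGANTCA) in 5 (6.48%), those of Syn2 (both intronic), Syp and Snap25 (both). The match read TGACTCA in the first intronic Syn2 peak and TGAGTCA in the Snap25 peak at the TSS. In the other peaks it read TGAATCA, outside the stricter form TGA(C/G)TCA. The RE1 element of the neuronal repressor REST was found in 0, against 0.05% of all peaks. A match is a string of letters and not a measured site.

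The GC content of the 22 peaks had a median of 59.3%, with a range of 43.2 to 74.3%, against a median of 60.4% for all 11938 peaks on assembled chromosomes. The CpG ratio, which is the number of CpGs over that expected from the C and G content, had a median of 0.50 (0.60 for all peaks). It was 0.57 for the 12 peaks within 2 kb of their own TSS, against 0.76 for all such peaks. The peaks fell into a wide range. Peaks at the TSS of Vamp2, Syn1, Syn2 and Syp reached 0.93, 0.90, 0.79 and 0.78, and the peak at Bola1 0.98. Those of Syn3, the second Stx1a peak, the upstream Vamp2 peak and the first intronic Syn2 peak were at 0.15 or less. Windows 5 kb to each side had a median of 0.20 (0.19 for all peaks). The peak was above its own flanks in 17 of 22, against 85.4% of all peaks. The gap was widest at Syn1, where the flanking windows held no CpG at all. Each window was as wide as its peak, and at Syn1 that was only 113 bp.

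**Figure D3:**
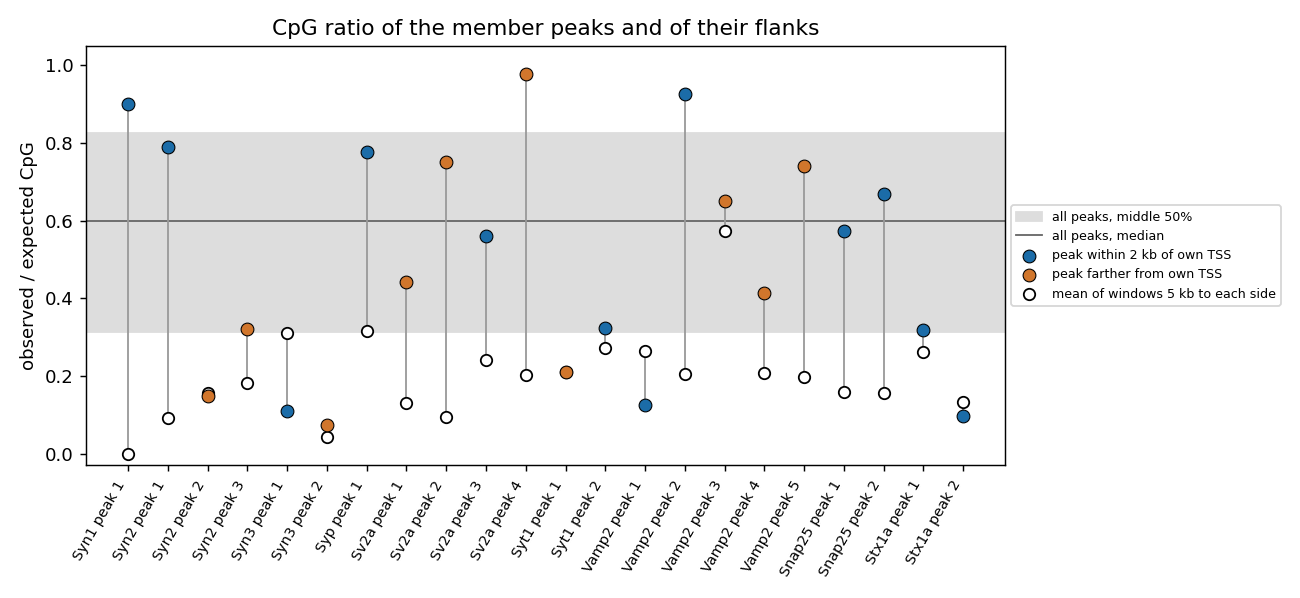
Observed to expected CpG ratio of each of the 22 peaks (filled) joined to that of its flanks (open, the mean of 2 windows at a distance of 5 kb), with grey for the middle 50% of all peaks. The peaks at the TSSs of Syn1, Syn2, Syp and Vamp2 lie at 0.78 to 0.93, far above their flanks.

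RefSeq promoter windows of the same 300 bp layout were available for 6 of the 9 genes (8 windows), and 4 of these overlapped a peak, against 13.1% of the 32851 windows. They were those of Sv2a, Syn1, Syn2 and Syp, of which the Syn1 window only touched the edge of its peak. The EGR element was in 1 of the 8 (Syn2), against 3.47% of all windows. The Syn1 window held a CRE, found in 1.79% of all windows, outside the peak. The 2 windows of Syt1 overlapped no peak, and its start-site peak lies between them, in the 5′UTR.

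The wider vesicle cycle was described with 11 lists of 116 genes, of which 115 were matched to GENCODE. Without the 9 members, 69 of 106 genes (65.1%) had a peak by the rule and 63 (59.4%) within 2 kb of a TSS. With the members counted, the start-site shares per list ran from 3 of 7 for the vesicular transmitter transporters and 7 of 16 for the proton pump, through 18 of 24 for endocytosis and recycling, to 3 of 3 for the synapsins, which are all members. Every list was above the 29.6% of all protein-coding genes. That share covers genes whether or not expressed in cortex, and the lists were not matched to it by expression. The lists hold 3 to 24 genes, and no test was made of their shares. In these shares, and in the IDRs given below for single genes, peaks nearer to another gene were not set apart.

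**Figure D4:**
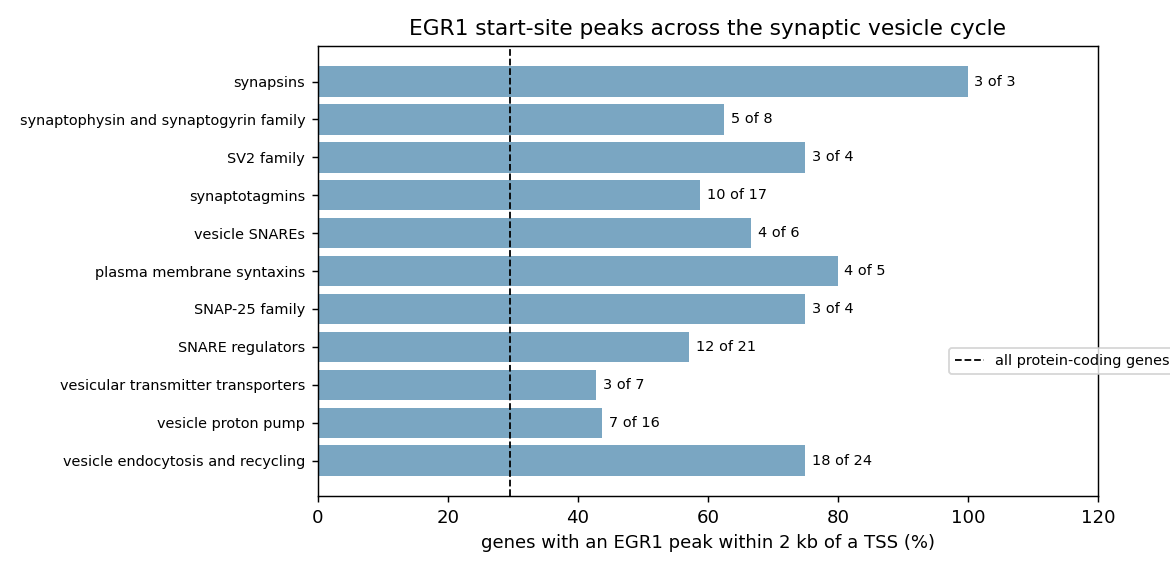
Percent of the genes of each list with an EGR1 peak within 2 kb of a TSS, members included, with the counts at the bars and a dashed line at the 29.6% of all protein-coding genes. Every list lies above the line, from 3 of 7 transporters to 3 of 3 synapsins.

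Within the families of the members, some relatives had a start-site peak in the list and others had none. Of the synaptophysin and synaptogyrin family, Sypl (5.14e-06), Sypl2 (2.88e-06), Syngr1 (0.00178) and Syngr2 (0.000308) had a start-site peak, with the lowest IDR within 2 kb in parentheses, and Synpr, Syngr3 and Syngr4 had none by the rule. Of the SV2 family, Sv2c (7.48e-08) and the related Svop (9.50e-08) had lower IDRs than Sv2a, and Sv2b had peaks only away from its TSSs (lowest IDR 0.000592). Of the synaptotagmins, 10 of 17 had a start-site peak. Syt5 (5.75e-07) had a lower IDR than Syt1, followed by Syt7 (3.41e-06), Syt12 (6.23e-06) and Syt11 (0.000115). Syt17 (0.000743), Syt13 (0.000815), Syt14 (0.00470), Syt16 (0.00797) and Syt3 (0.0194) had higher values, and Syt6 had a peak only away from its TSSs. Syt2, Syt4, Syt8, Syt9, Syt10 and Syt15 had none. The nearest peak to a TSS of Syt2, a close relative of Syt1 that also triggers fast release, was 85656 bp away.

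Among the SNAREs, Vamp4 (1.17e-08, rank 56) and Snap29 (2.38e-08, rank 156), which act on endosomes and other inner membranes, had lower IDRs than Vamp2 and Snap25. Vamp3 (1.61e-07) and Vamp1 (3.75e-05) also had a start-site peak, Vamp5 and Vamp8 had none, and Vamp7 was not matched. Snap47 had one (0.00444) and Snap23 only a peak 3740 bp from its TSS. Of the syntaxins, Stx4a (6.64e-07) and Stx3 (0.00116) had a start-site peak and Stx2 had none.

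The genes with the lowest IDRs in the remaining lists were taken by the same rule in each, from any peak of the gene. Among the SNARE regulators they included Stxbp5l (tomosyn-2, 6.37e-09, rank 16) and Cplx1 (complexin 1, 6.76e-08). Among the transmitter transporters they were Slc18a1 (6.08e-09, rank 14), Slc17a7 (the vesicular glutamate transporter VGLUT1, 3.55e-08) and Slc32a1 (the GABA transporter of vesicles, 0.000122). The Slc18a1 peak is the same as that of Atp6v1b2, a proton pump subunit, and lay 18 bp from a TSS of Atp6v1b2 and 545 bp from one of Slc18a1. In the proton pump, Atp6v1b2 (6.08e-09), Atp6v1c1 (6.17e-08) and Atp6v1f (6.21e-08) were lowest. In endocytosis and recycling they were Hspa8 (the uncoating chaperone, 3.16e-08), Sh3gl1 (an endophilin, 4.01e-08) and Cltc (clathrin heavy chain, 4.23e-08). Of the 9 members, only Syn2 had a start-site IDR lower than these endocytosis genes.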

How the data were processed

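EGR1 ChIP-seq reads of frontal cortex were trimmed by the authors, mapped to mm10 with Bowtie and passed to SPP for peak calling in each of 2 replicates. The submitters' processing notes list cutadapt, Bowtie2 2.2.9 and bedtools 2.26.0. Each merged peak was deposited as a position with its IDR, where the IDR is read like a q-value and is limited to 0.02. Counts and signal were not in the files used here, the depth per peak is therefore unknown, and the input DNA was not analysed here.

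Starts were taken as counted from 0 (BED) and are printed from 1. Genes came from GENCODE M21, sequences and promoter windows from RefSeq GRCm38.p6. The 76 peaks on scaffolds have no sequence results. UTRs of either annotation were kept out of the printed stretches beyond the short windows. The genes named are the 9 members, genes with a TSS nearer to a member peak, the members' families, and the 3 genes with the lowest IDR in each other list, of which some are not reported here. Members, lists and motifs were chosen with earlier results of these data known. No test was made, because a single merged list has no replicate values. Python 3.11.15, numpy 2.4.6, pandas 2.3.3 and matplotlib 3.10.9 were used. On simulated data, the motif search recovered 300 of 300 sequences and the gene rule 300 of 300 peaks.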

Additional observations from a re-analysis of the deposited data

How the results depend on the processing

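Of the 38 alternatives, 33 kept their value within the limits set, which were 1.5 times for counts and the SD over the member peaks for medians. A fall from 9 to 6 genes with a peak within 2 kb, at an IDR of 0.001 or less, still counted as kept. All 9 genes had a peak by the rule, so alternatives that only widened it could not change that count. The SD of the IDR, taken on the log10 scale, is wide, and the median IDR rose from 0.000514 to 0.00351 without the peaks nearer to another gene and to 0.00184 with those within 2 kb of a member TSS. The number of member peaks moved from 22 to 12 with an IDR of 0.001 or less, to 11 with the 50% of peaks of lowest IDR, and to 37 with 50 kb around the TSSs. The peaks with an EGR element moved from 6 to 13 with 1 difference allowed and to 1 with the T form alone, against 69.8% and 4.41% of all peaks. With TSSs of protein-coding transcripts only, 7 of 9 genes had a peak within 2 kb (28.5% of all genes), without Syn3 and Stx1a. With an IDR of 0.01 or less, 7 of 9 had one (27.7%), again without Syn3 and Stx1a, whose IDRs are all above 0.01. No paired analysis was possible because the replicates were merged before deposit. For the same reason, leaving out each replicate was not possible. The list does not tell whether a gene without a peak was unbound.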
